A study of Bos taurus with 3 samples.

Results

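The genes of the cytoskeleton were examined in mammary tissue of dairy cows before and after calving. A gene was included if its symbol belonged to an actin, actin-related protein, alpha-actinin, Arp2/3 subunit, myosin heavy or light chain, unconventional myosin, tropomyosin, calponin, transgelin, caldesmon, cofilin, profilin, vimentin, desmin, keratin or tubulin, or to the formin INF2. The rule used names only, but it was chosen with earlier results of these data known. It found 85 of the 9154 genes in the 3 libraries, with 84 symbols, since INF2 was listed under 2 accessions. Of these, 11 were smooth muscle and myoepithelial genes, 11 were keratins, 7 were isoforms of striated muscle and 56 were general genes of actin, myosin and tubulin. The 56 include MYLIP, a ubiquitin ligase that matches only by its letters. In all, 70 members were listed in every library, and 11 had at most 3 tags in each library.

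The mammary gland was sampled by biopsy in 18 Holstein cows of parity 2, with 6 cows at each time point. The time points were day 35 before parturition in the dry period (−35 d), day 7 before parturition in stage I of lactogenesis (−7 d), and day 3 after parturition in stage II, when colostrum was produced (+3 d). Different cows were taken at each time point. The tissue of the 6 cows was pooled before RNA isolation, so each time point was 1 pool and 1 library, and a difference between libraries has no replicate check. Digital gene expression counts tags of 21 bases that start at a CATG site of the transcript, as a rule the last one, although other sites can also give tags. A value in TPM is the number of unambiguous tags of a gene divided by the clean tags of the library and multiplied by a constant. It is not divided by transcript length, and a gene with several tagged sites can count a transcript more than once, so the order of different genes is an order of their tags. The libraries held 5914422, 5593237 and 5845821 clean tags at −35 d, −7 d and +3 d, at which 3 tags were worth 0.507, 0.536 and 0.513 TPM. Listed genes took 40.5%, 41.4% and 53.0% of these tags. Tags that matched several genes had been left out by the authors, so the values of near-identical genes, such as actins and tubulins, are uncertain and may miss a part of their transcripts.

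A milk-producing alveolus is a layer of luminal cells wrapped by myoepithelial cells, which contract on oxytocin and eject the milk. Myoepithelial cells are epithelial cells that carry the contractile proteins of smooth muscle together with the basal keratins 5, 14 and 17, while luminal cells carry the keratins of simple epithelia. Smooth muscle of vessel walls shares the contractile genes, and in bulk tissue neither the source of a transcript nor fewer cells of a type and less RNA per cell can be told apart. In every cell, actin filaments that the Arp2/3 complex branches shape the cortex, and microtubules of alpha- and beta-tubulin carry vesicles and form the mitotic spindle.

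The 85 genes together held 88865, 70021 and 73369 tags. Libraries were compared in 3 pairs, named here stage I (−7 d against −35 d), stage II (+3 d against −7 d) and the whole transition (+3 d against −35 d), and a log2 ratio is always later over earlier. The two-sided Audic-Claverie test was run over all genes. A gene was called where its false discovery rate did not exceed 0.001 and its level differed at least 2-fold. In stage I, 2 members were called higher and 9 lower, of 81 tested, where 2.62% of all genes were called higher and 6.45% lower. In stage II, 10 were called higher and 3 lower of 81, where 3.12% of all genes were higher and 10.4% lower. Over the whole transition, 7 were called higher and 10 lower of 82, where 2.33% of all genes were higher and 16.3% lower. Members called higher thus made up 12.3% of those tested in stage II, and members called lower 3.70%. Of the 85 members, 26 were called in at least 1 comparison and 59 in none. The same share was not counted over all genes, so these 2 counts only describe the members. Each pair of comparisons shares a library, so their ratios are not independent.

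These counts depend on the scale. Under TMM scaling, which sets the bulk of the genes level, every log2 ratio was raised by 0.19 in stage I, 0.31 in stage II and 0.50 over the whole transition. Under this scaling the counts of members called higher and lower were 4 and 5, then 14 and 2, then 14 and 3. The counts over all genes moved in the same way. On the TPM scale they were 235 and 578, then 274 and 915, then 209 and 1463. With TMM they were 378 and 350, then 516 and 430, then 560 and 444. Ratios are on the TPM scale unless TMM is named. A call also rests on counting error alone. When edgeR's exact test was given a biological coefficient of variation of 0.2, an assumed value, none of the members was called in stage I. ACTG2, CNN1 and DES were then called higher in stage II, and ACTG2, DES, INF2 and TPM2 over the whole transition, and no member was called lower. Calls were rare over all genes too. Those higher and lower were 27 and 27 of 8967 in stage I, 65 and 95 of 8784 in stage II, and 54 and 102 of 8988 over the whole transition.

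**Figure D1:**
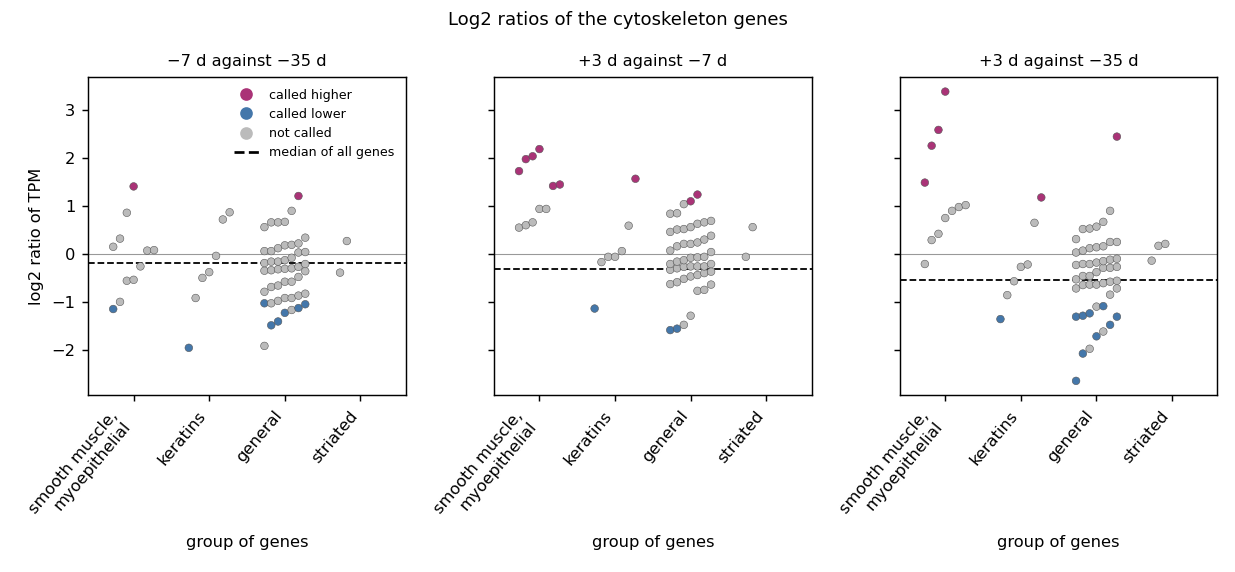
Log2 ratio of TPM (vertical axis) of each member with over 3 tags in both libraries of a pair, by group of genes, for the 3 comparisons. Each point is a gene, purple where called higher, blue where called lower and grey where not called, and the dashed line is the median of all genes whose mean was 1 TPM or more. Members with fewer tags, KRT75 and TUBA1D among them, are not drawn. In the middle panel all 11 smooth muscle and myoepithelial genes lie above 0, while the general genes spread around the dashed line at −0.31.

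The smooth muscle and myoepithelial genes were highest as a group after parturition. Their summed level was 1015 TPM at −35 d (95% Poisson interval 989 to 1041), 790.1 TPM at −7 d (767 to 814) and 2061 TPM at +3 d (2024 to 2098). All 11 had a higher level at +3 d than at −7 d. The 3 other scalings raise every stage II ratio, so they could not change this. In stage II 6 of the 11 were called higher, or 54.5%, beside 3.12% of all genes. The median of their log2 ratios was 0.07 in stage I, 1.42 in stage II and 0.98 over the whole transition, beside −0.19, −0.31 and −0.54 for all genes. Without MYL9, the most abundant of them, the sums were 772, 625 and 1609 TPM.

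**Figure D2:**
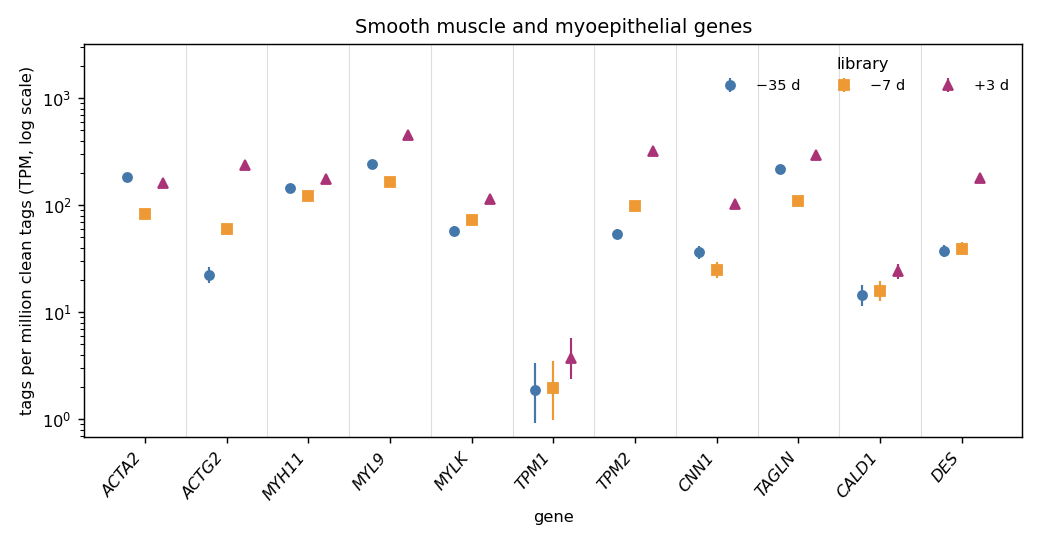
Level in TPM (log axis) of the 11 smooth muscle and myoepithelial genes in the −35 d (circles), −7 d (squares) and +3 d (triangles) libraries, with exact 95% Poisson intervals that cover counting error only. ACTG2, TPM2, CNN1 and DES are set well apart at +3 d, and ACTA2 is lowest at −7 d with 83.5 TPM.

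The 2 actins of smooth muscle did not follow the same course. ACTG2, the gamma actin of smooth muscle, was at 22.3 TPM at −35 d, 59.4 TPM at −7 d and 235 TPM at +3 d. It climbed at each step and was called higher in all 3 comparisons, with log2 ratios of 1.41 (95% CI 1.12 to 1.71), 1.98 (1.81 to 2.16) and 3.39 (3.14 to 3.66), the last a 10.5-fold difference. ACTA2, the alpha actin that is the usual marker of myoepithelium, was at 185 TPM, 83.5 TPM and 160.3 TPM. It was called lower at −7 d (log2 ratio −1.15, 95% CI −1.31 to −0.99), a call lost under TMM at −0.96. Its higher level in stage II stayed just under the threshold at 0.94 (0.78 to 1.10) and passed it under TMM at 1.25. Over the whole transition its ratio was −0.21, which became 0.29 under TMM. A share of tags within a library does not depend on its total. ACTG2 made up 10.8% of the tags of both genes at −35 d (95% Wilson interval 9.15 to 12.6), 41.6% at −7 d and 59.4% at +3 d (57.4 to 61.4). The smooth muscle actin with more tags was therefore ACTA2 before parturition and ACTG2 after it.

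The genes of the smooth muscle filaments differed in size of change. TPM2, the beta-tropomyosin that lies along the actin filament, was at 53.6, 97.3 and 322 TPM. Like ACTG2 it increased at each step, with log2 ratios of 0.86 (95% CI 0.66 to 1.06), which was not called but reached 1.05 and was called under TMM, then 1.73 (1.59 to 1.87) and 2.59 (2.41 to 2.76), both called higher. DES, desmin, the intermediate filament of muscle, was at 37.4 and 39.3 TPM before parturition and at 179 TPM after it. The levels before parturition overlapped within counting error, and the ratio of stage II was 2.19 (1.98 to 2.40), a 4.56-fold difference. CNN1, the calponin that binds actin and dampens myosin in smooth muscle, was at 36.2, 24.9 and 102 TPM, and was called higher in stage II at 2.04 (1.77 to 2.31). TPM1, the alpha-tropomyosin, had only 11, 11 and 22 tags, and its ratios were not distinguishable from 0 at this depth.

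MYL9 and TAGLN had their lowest level at −7 d. MYL9, the regulatory light chain of smooth muscle myosin, was at 243 TPM, 165 TPM and 452 TPM. It was called higher in stage II at 1.45 (95% CI 1.34 to 1.56), while the ratio of −0.56 before it was not called. TAGLN, transgelin, an actin-bundling protein of smooth muscle, was at 219, 109 and 292 TPM. Its stage I ratio lay just inside the threshold (95% CI −1.14 to −0.86) and was not called, while stage II was called higher at 1.42 (1.28 to 1.55).

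The remaining smooth muscle genes were not called in any comparison on the TPM scale. MYH11, the myosin heavy chain of smooth muscle, was at 145, 121 and 177 TPM, with a stage II ratio of 0.55 (95% CI 0.40 to 0.69). MYLK, the kinase that switches smooth muscle myosin on, was at 57.8, 72.2 and 114 TPM and reached 0.98 (0.79 to 1.17) over the whole transition, which was called under TMM at 1.48. CALD1, caldesmon, was at 14.4, 15.9 and 24.1 TPM, and its ratio of 0.75 over the whole transition was called under TMM at 1.24. In TPM, MYH11 was thus only 1.46-fold higher at +3 d than at −7 d, where MYL9 was 2.74-fold higher.

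Other genes of the contractile apparatus were read from a list of 22 symbols that the rule does not match, of which 11 were found as 12 genes. In stage II, 3 of the 11 tested were called higher and 1 lower, beside 3.12% and 10.4% of all genes, and under TMM 5 were called higher and 0 lower. Their median log2 ratio was 0.66, where that of all genes was −0.31. LMOD1, OXTR and SMTN were those called higher on the TPM scale. OXTR, the oxytocin receptor of the myoepithelial cell, had 2, 9 and 37 tags, or 0.338, 1.61 and 6.33 TPM, and its stage II ratio was 1.98. LMOD1, the leiomodin that starts actin filaments in smooth muscle, was at 30.3, 12.3 and 37.5 TPM, and was called lower before being called higher. SMTN, smoothelin of contractile smooth muscle, was at 20.3, 18.2 and 36.6 TPM. PDLIM7, an actin-associated PDZ and LIM protein listed under 2 accessions, went the other way at the rarer of them with 39, 95 and 49 tags, called higher at −7 d and lower at +3 d, while the other was not called. The lower call was lost under TMM.

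Markers of other cell types moved between the same libraries. Of the 6 markers of smooth muscle and pericytes 5 were found, with a sum of 276, 207 and 489.8 TPM, and all 5 were higher at +3 d than at −7 d. They include the members DES, CNN1 and MYH11, which were highest at +3 d. RGS5, a marker of pericytes, was at 42.6, 10.7 and 16.8 TPM, and MCAM, found on smooth muscle and pericytes, at 15.6, 11.3 and 14.9 TPM. These 2 are the markers of the list outside the members, and neither was called higher in any comparison. Of the 6 fibroblast markers found, the sum was 7646, 5735 and 8698 TPM, and all 6 were higher at +3 d than at −7 d, with 2 called. Of the 6 endothelial markers the sum was 98.6, 75.3 and 116 TPM, with 1 called higher in stage II. The 5 macrophage markers summed to 120.2, 58.5 and 134 TPM, with 3 called lower in stage I and 3 called higher in stage II. Among them CD14 went the other way in stage I, from 2.87 to 4.29 TPM, and was not called there. Of all genes, 6.45% were called lower in stage I and 3.12% higher in stage II. The part of these cell types in the values of the smooth muscle genes was not tested. The 9 markers of striated muscle, of which 6 were found, summed to 1.52, 1.43 and 2.39 TPM, and ACTA1, the skeletal actin, had 0, 2 and 0 tags. The 7 striated isoforms among the members summed to 5.92, 5.18 and 7.70 TPM, none was called, and the highest, MYL4, an embryonic and atrial light chain, had 18, 13 and 20 tags.

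The 11 keratins summed to 1476, 1483 and 1209.9 TPM, and the genes that held most of these tags differed between the libraries. The order of the sums turned with the scale, since they were 1259, 1443 and 1458 under TMM. Intermediate filaments of keratin are built from a type I and a type II keratin in equal parts, and the partners mark the layer of an epithelium. The keratins KRT18 and KRT19 of the luminal cell and KRT15 of the basal cell were not found by symbol in any library. The keratins called in a comparison were KRT5, KRT13, KRT17 and KRT75. In stage I 0 were called higher and 1 lower of 9 tested. The counts were 2 and 1 of 10 in stage II, and 2 and 1 of 11 over the whole transition. Of all genes, 2.62%, 3.12% and 2.33% were called higher in the 3 comparisons, and 6.45%, 10.4% and 16.3% lower. The median log2 ratio of the 7 keratins whose mean was 1 TPM or more was −0.38, −0.06 and −0.27 over the 3 comparisons, and the last 2 became 0.24 and 0.23 under TMM.

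**Figure D3:**
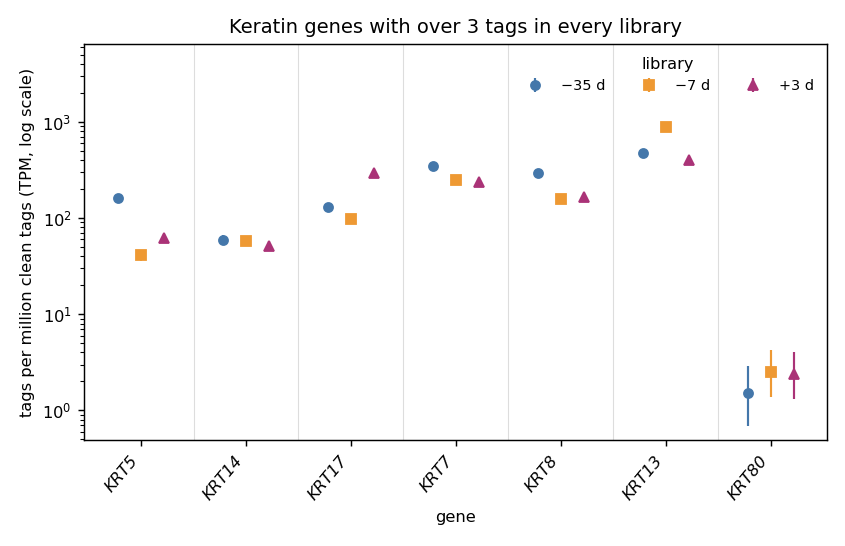
Level in TPM (log axis) of the 7 keratins with over 3 tags in every library, at −35 d (circles), −7 d (squares) and +3 d (triangles), with exact 95% Poisson intervals that cover counting error only. KRT5 is highest at −35 d with 159.8 TPM, KRT13 at −7 d with 878 TPM and KRT17 at +3 d with 293 TPM.

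The 3 basal keratins each took their own course. KRT5, the type II keratin of basal and myoepithelial cells, was at 159.8 TPM at −35 d, 41.1 TPM at −7 d and 62.1 TPM at +3 d. It was called lower at −7 d by 3.89-fold (log2 ratio −1.96, 95% CI −2.17 to −1.75), and remained lower at +3 d than at −35 d at −1.36 (−1.54 to −1.19), a call lost under TMM at −0.87. KRT14, its usual type I partner, was nearly level at 59.7, 57.9 and 51.3 TPM, with a ratio of −0.22 (−0.44 to 0.01) over the whole transition, turning to 0.28 under TMM. KRT17, another type I basal keratin, was at 129, 98.7 and 293 TPM. It was called higher in stage II at 1.57 (1.43 to 1.71) and over the whole transition at 1.18 (1.06 to 1.31).

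Within the tags of these 3 genes, KRT5 made up 45.9% at −35 d (95% Wilson interval 43.7 to 48.0), 20.8% at −7 d (18.5 to 23.3) and 15.3% at +3 d (13.9 to 16.8). KRT17 made up 37.0% (34.9 to 39.1), 49.9% (47.0 to 52.9) and 72.1% (70.2 to 73.8). The basal keratin with the most tags was thus KRT5 at −35 d and KRT17 at −7 d and +3 d. The basal keratins together were at 348, 198 and 406 TPM, which was 23.6%, 13.3% and 33.6% of all keratin tags. KRT17 and the smooth muscle genes MYH11, MYL9, TAGLN and CNN1 shared a lowest level at −7 d and a highest level at +3 d.

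KRT7 and KRT8, the type II keratins of simple epithelia and of the luminal cell, had no called difference. KRT7 was at 350.2, 247 and 236 TPM, and KRT8 at 297, 157 and 164 TPM. Both were highest at −35 d, with ratios of −0.50 (95% CI −0.60 to −0.40) and −0.92 (−1.04 to −0.80) at −7 d, and −0.31 and −0.73 under TMM. From −7 d to +3 d the intervals of both included 0 on the TPM scale, at −0.06 (−0.17 to 0.04) and 0.06 (−0.07 to 0.19), and under TMM they were 0.24 and 0.37, while CSN2, beta-casein of the luminal cell, went from 12496 to 64463 TPM. EPCAM, an adhesion molecule of epithelial cells, was at 498, 293 and 210.2 TPM. CSN2 and EPCAM belong to a list of 10 luminal and secretory markers, of which 8 were found, KRT8 among them. In stage II 6 of the 8 were higher, and 2, ELF5 and EPCAM, were lower. CSN2 and LALBA were called higher and ELF5 lower, beside 3.12% and 10.4% of all genes. The call of ELF5 was lost under TMM.

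KRT13, a type I keratin best known from stratified mucosa, held the most tags of the keratins in every library. It was at 479.5 TPM, 878 TPM and 398 TPM, and so peaked at −7 d. It made up 32.5% of all keratin tags at −35 d (95% Wilson interval 31.5 to 33.5), 59.2% at −7 d (58.2 to 60.3) and 32.9% at +3 d (31.8 to 34.0). Which of its 2 steps was called depended on the scale. The ratio at −7 d was 0.87 (0.81 to 0.94) and was not called at 2-fold, but was called with TMM at 1.06 and with DESeq2 size factors at 1.07, while the ratio at +3 d was −1.14 (−1.21 to −1.07) and was lost under TMM at −0.83. Without KRT13, the keratins summed to 997, 605 and 812 TPM.

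The other keratins were rare. KRT75, a keratin of the hair follicle, had 0, 0 and 15 tags, and was called higher at +3 d in both comparisons. KRT80 had 9, 14 and 14 tags. KRT6A, KRT23 and KRT83 had at most 3 tags in any library. Of the 10 partners of keratins in desmosomes on the list, 5 were found, and they summed to 97.4, 45.8 and 37.6 TPM. None was called higher in any comparison, 2 were called lower in stage I and 3 over the whole transition, where 6.45% and 16.3% of all genes were. Under TMM 1 was called lower in each, namely JUP. JUP, plakoglobin, which ties desmosomes and adherens junctions to filaments, was at 60.0, 22.0 and 19.5 TPM and was called lower in stage I at −1.45. DSC2, a desmocollin, was at 5.07, 1.07 and 1.03 TPM and was called lower in stage I too, a call lost under TMM.

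The general genes summed to 12528, 10240.4 and 9272 TPM, and the cytoplasmic actins made up 5214, 4530.3 and 3894 TPM of this. Under TMM the sums were 10687, 9965 and 11169.7, so the order of the libraries turned and +3 d was the highest. Of the 56, 1 was called higher and 7 lower in stage I, 2 higher and 2 lower in stage II, and 1 higher and 9 lower over the whole transition. The shares called lower were 12.5%, 3.77% and 16.4%, and all genes stood at 6.45%, 10.4% and 16.3%. Over the 49 whose mean was 1 TPM or more the median log2 ratio was −0.32, −0.13 and −0.46, and under TMM it was 0.18 for stage II and 0.04 over the whole transition. Under TMM the calls were 1 higher and 4 lower, 5 higher and 2 lower, and 5 higher and 3 lower.

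ACTB and ACTG1, the beta and gamma actins of every cell, parted in stage II. ACTB, which was the reference gene of the qRT-PCR in the study, was at 2919, 2551 and 2624 TPM. Its log2 ratios were −0.19 (95% CI −0.23 to −0.16), 0.04 (0.01 to 0.07) and −0.15 (−0.18 to −0.12), and the last 2 became 0.35 and 0.34 under TMM. ACTG1 was at 2295, 1979 and 1269.8 TPM, with ratios of −0.21, −0.64 and −0.85, none of which was called, and −0.36 under TMM for the last. ACTG1 made up 44.0% of the tags of both at −35 d (95% Wilson interval 43.5 to 44.6), 43.7% at −7 d (43.1 to 44.3) and 32.6% at +3 d (32.0 to 33.2). The smooth muscle actins made up 3.83%, 3.06% and 9.21% of the tags of all actins.

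In other families the smooth muscle form also had its highest share of tags at +3 d. TPM4, the nonmuscle tropomyosin, was at 176, 89.2 and 128 TPM and made up 76.1%, 47.3% and 28.2% of the tropomyosin tags, where TPM2 made up 23.1%, 51.6% and 71.0%. MYL12A, the regulatory light chain of nonmuscle myosin, was at 894, 642 and 587 TPM. MYL9 made up 21.4% of the tags of both light chains at −35 d (95% Wilson interval 20.4 to 22.4), 20.4% at −7 d (19.3 to 21.6) and 43.5% at +3 d (42.2 to 44.7). MYL6, the essential light chain that smooth and nonmuscle myosin share, was at 408, 425 and 761 TPM, and its ratios of 0.84 and 0.90 at +3 d were not called at 2-fold on the TPM scale, but were called under TMM at 1.15 and 1.40. CNN1 made up 24.2%, 22.1% and 42.3% of the calponin tags and TAGLN 43.4%, 32.3% and 46.4% of the transgelin tags, where the intervals of −35 d (41.6 to 45.1) and +3 d (44.8 to 48.0) overlapped. TAGLN2, the transgelin of nonmuscle cells, was at 283, 227 and 336 TPM, and its ratios of −0.32, 0.56 and 0.25 were not called.

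**Figure D4:**
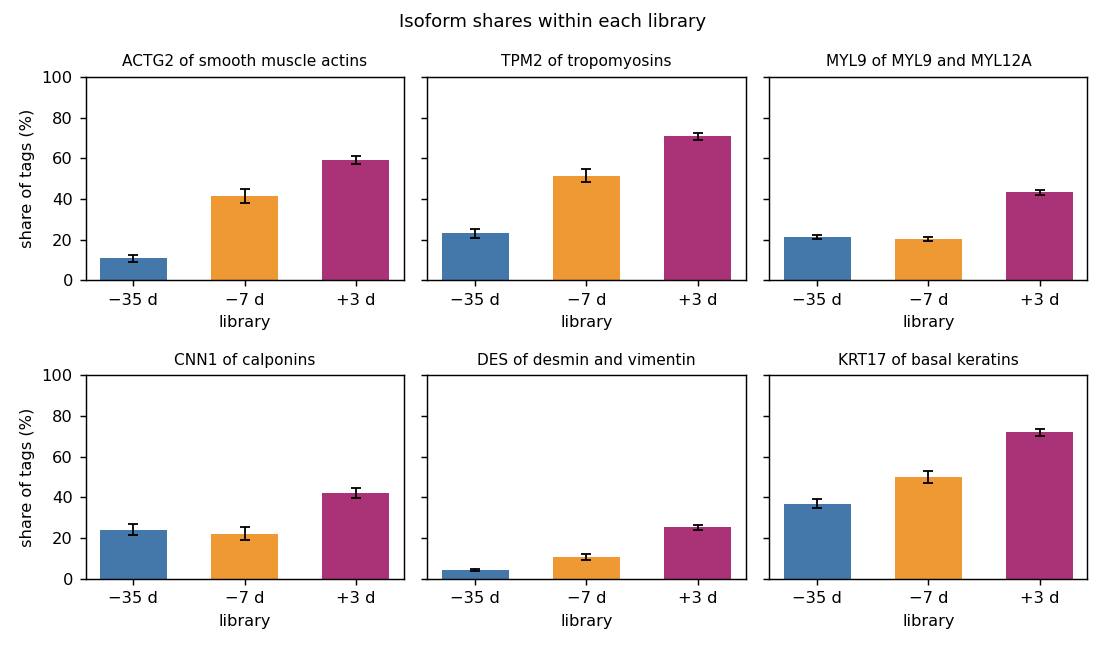
Share of tags in percent of 1 isoform among its family in each library, with 95% Wilson intervals that cover counting error only. Each bar starts at 0. The 6 panels are a selection of shares that were highest at +3 d, from 25.4% for desmin among desmin and vimentin to 72.1% for KRT17 among the basal keratins. Shares not drawn include some that were highest earlier. Examples are KRT5 among the basal keratins, with 45.9% at −35 d, and KRT13 among all keratins, with 59.2% at −7 d.

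VIM, vimentin, the intermediate filament of fibroblasts, endothelium and white blood cells, was at 871 TPM at −35 d, 328 TPM at −7 d and 528 TPM at +3 d. It was called lower in stage I at −1.41 (95% CI −1.49 to −1.33), also under TMM at −1.22. In the same comparison the summed markers of macrophages went from 120.2 to 58.5 TPM, those of T cells from 141 to 91.4 TPM and those of fibroblasts from 7646 to 5735 TPM, and their part in the vimentin value was not tested. Desmin made up 4.11%, 10.7% and 25.4% of the tags of desmin and vimentin.

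INF2, a formin that lengthens and severs actin filaments, was the general gene called higher in all 3 comparisons. It is the only formin that the rule takes in, and the rule was chosen with earlier results of these data known. The formins DIAPH1, with 14, 2 and 7 tags, and DIAPH2, with 30, 51 and 31 tags, were not called in any comparison. Its main accession was at 12.3, 28.6 and 67.6 TPM, with log2 ratios of 1.21 (95% CI 0.80 to 1.63), 1.24 (0.97 to 1.51) and 2.45 (2.09 to 2.83). Its second accession had 3, 0 and 0 tags. ACTN4, an alpha-actinin that crosslinks filaments in nonmuscle cells, was at 60.5, 40.6 and 87.2 TPM and was called higher in stage II at 1.10 (0.88 to 1.34). Its relative ACTN1 was at 260.2, 209.9 and 273 TPM and was not called.

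The Arp2/3 complex, which starts actin branches, had lower levels after parturition than in the dry period for 8 of its 9 genes. The same held for 5731 of the 7570 genes whose mean was 1 TPM or more. Under TMM 1 of the 9 had a ratio above 0, beside 3631 of the 7570. The 9 genes summed to 1014, 812 and 634 TPM, and 2 were called lower in stage I, 1 in stage II and 5 over the whole transition, beside 6.45%, 10.4% and 16.3% of all genes. ARPC1B was at 58.0, 24.7 and 23.4 TPM, and ARPC1A, the other form of the same subunit, at 53.3, 25.7 and 21.6 TPM. Both were called lower in stage I, at −1.23 (95% CI −1.53 to −0.94) and −1.05 (−1.34 to −0.76), and their intervals in stage II included 0. The stage I call of ARPC1A was lost under TMM at −0.86 and with both other scalings, while that of ARPC1B held under TMM at −1.04. ARPC2 was at 126, 68.7 and 59.2 TPM and ARPC4 at 86.2, 48.5 and 36.6 TPM, called lower only over the whole transition at −1.09 and −1.24. ARPC5L dropped later, at 54.3, 58.8 and 19.5 TPM, with a called stage II ratio of −1.59 (−1.91 to −1.28). ARPC5, the other form of that subunit, was at 143, 119 and 98.9 TPM with no call. ARPC3 was the exception at 63.7, 102 and 91.2 TPM, and the arms ACTR2 and ACTR3 were at 139 and 144 TPM at +3 d after 206 and 224 TPM at −35 d. The 5 calls over the whole transition were lost under TMM, where ARPC3 was called higher, and the median of the 9 genes was then −0.59 in place of −1.09.

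**Figure D5:**
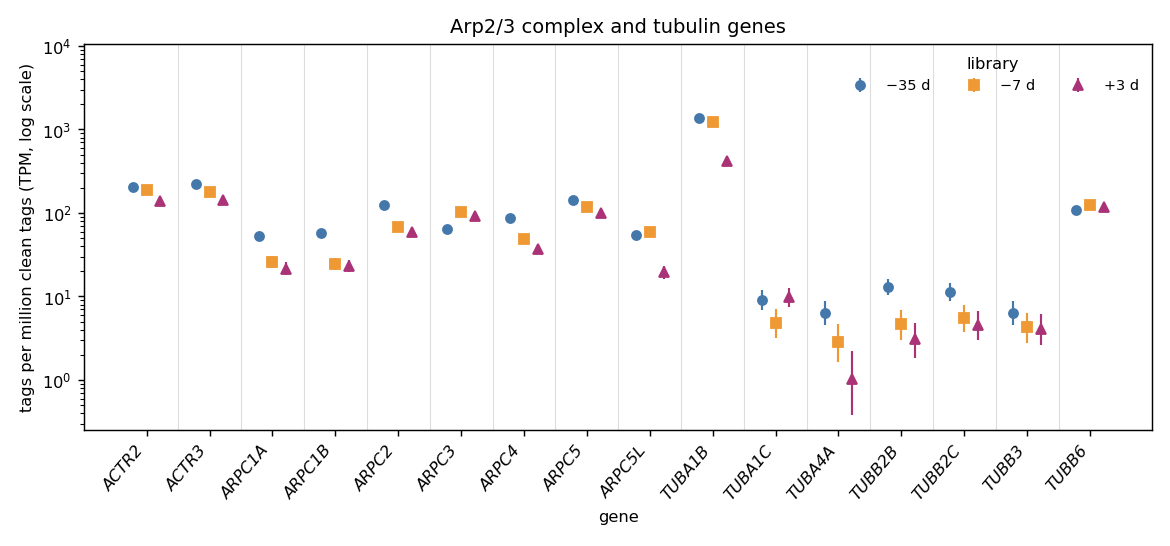
Level in TPM (log axis) of the 9 genes of the Arp2/3 complex and of 7 tubulins with over 3 tags in every library, at −35 d (circles), −7 d (squares) and +3 d (triangles), with exact 95% Poisson intervals that cover counting error only. TUBA1B is at 416 TPM at +3 d after 1228 TPM at −7 d, while TUBB6 stays between 108 and 126 TPM.

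Of the other actin genes, 4 bind monomers or sever filaments, and none of these was called in stage II on the TPM scale. CFL1, cofilin, which severs filaments, was at 751, 587 and 455 TPM. PFN1, profilin, which loads actin monomers for growth, was at 393, 351 and 303 TPM. PFN2 was at 48.4, 22.2 and 40.0 TPM and was called lower in stage I at −1.13. Its stage II ratio of 0.85 was called higher under TMM at 1.16. ACTR10, a part of the dynactin complex that helps dynein carry cargo, was at 33.6, 16.4 and 22.6 TPM and was called lower in stage I at −1.03. The lower calls of PFN2 and ACTR10 were lost under TMM. None of the 8 unconventional myosins was called, and they summed to 291, 291 and 298 TPM. Of 33 further regulators of actin on a list, 26 were found, and 0 were called higher in any comparison while 2, 0 and 2 were called lower over the 3 comparisons. The 2 of 26 were 7.69%, near the 6.45% of all genes in stage I and under the 16.3% over the whole transition. Under TMM the counts were 0 higher and 1 lower in stage I, 2 higher and 0 lower in stage II, and 2 higher and 1 lower over the whole transition. CAPZB, the beta subunit of the protein that caps filament ends, was at 48.9, 23.4 and 15.7 TPM and was called lower in stage I at −1.06, which was lost under TMM, and over the whole transition at −1.63.

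TUBA1B, the main alpha-tubulin, was at 1370.4 TPM at −35 d, 1228 TPM at −7 d and 416 TPM at +3 d. The level was similar in both libraries before parturition and 2.95-fold lower after it, with a called stage II ratio of −1.56 (95% CI −1.63 to −1.49) that held under TMM at −1.25. TUBA1B made up 98.6%, 99.3% and 97.0% of the alpha-tubulin tags. TUBA1C was at 9.13, 4.83 and 9.92 TPM with no call on the TPM scale. TUBA4A had 38, 16 and 6 tags and was called lower over the whole transition at −2.65 (−4.18 to −1.39). TUBA1D had 16, 0 and 4 tags and was called lower in stage I.

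None of the 5 beta-tubulins listed was called in stage II. TUBB6 had a stage II ratio of −0.08 (95% CI −0.23 to 0.07). TUBB2B, TUBB2C, TUBB3 and TUBB4 had only 26, 31, 24 and 6 tags at −7 d, and 18, 27, 24 and 2 at +3 d. At so few tags a missing call does not show that a gene stayed level. TUBB and TUBB2A were not found by symbol in any library, so the beta-tubulins as a whole cannot be compared with TUBA1B. TUBB6 was at 108, 126 and 119 TPM, was not called and made up 76.7%, 89.0% and 90.7% of the beta-tubulin tags. TUBB2B was at 13.0, 4.65 and 3.08 TPM and was called lower in stage I at −1.49 (95% CI −2.19 to −0.83) and over the whole transition at −2.08 (−2.91 to −1.33). TUBB2C was at 11.3, 5.54 and 4.62 TPM and was called lower only over the whole transition, at −1.29, a call lost under TMM. The tags of the listed alpha-tubulins numbered 8220, 6913 and 2505 and those of the listed beta-tubulins 832, 789 and 765. The 3 genes of the gamma-tubulin complex, TUBGCP2, TUBGCP4 and TUBGCP5, which start microtubules, were all highest at −7 d, summed to 43.8, 63.3 and 38.7 TPM and were not called.

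Other genes of the microtubule and of cell division changed between the same libraries. Of the 16 genes found of 21 for tubulin folding and microtubule control, none was called higher, and 3 were called lower in stage I, 1 in stage II and 6 over the whole transition, beside 6.45%, 10.4% and 16.3% of all genes. Under TMM these counts were 2, 1 and 2. STMN1, stathmin, which binds tubulin dimers and takes microtubules apart, was at 109, 158 and 33.7 TPM and was called lower in stage II at −2.22. CCT8, a subunit of the chaperonin that folds actin and tubulin, was at 11.7, 5.18 and 1.37 TPM, with 69, 29 and 8 tags. It was the rarest subunit found and not typical of them. TCP1, CCT2, CCT3, CCT4, CCT6A and CCT7 had ratios from −0.14 to 0.38 in stage I and −0.97 to −0.75 in stage II. None of these was called in either stage. Of the 9 mitosis genes found of 12, 3 were called higher in stage I and all 9 were called lower in stage II. Of all genes, 2.62% were called higher in stage I and 10.4% lower in stage II. Under TMM 6 of the 9 were called higher in stage I and 8 lower in stage II. Their median log2 ratio in stage II was −3.09 on the TPM scale. The mitosis genes summed to 47.0, 100.5 and 13.5 TPM, so they were highest at −7 d. The stage I ratio of TUBA1B was −0.16 on the TPM scale and 0.03 under TMM. Their part in the value of TUBA1B was not tested.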

How the data were processed

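Mammary RNA of 6 cows was pooled per time point, and 1 tag library was sequenced per pool. From the raw tags the authors took out adaptors, single-copy tags and those with unknown bases or an unfit length. They matched what remained (CATG and 17 bases) to the transcripts of Bos taurus UMD 3.1 with up to 1 mismatch. The deposited counts are unambiguous clean tags per gene, and the deposited copy numbers are counts of each distinct clean tag, which gave the totals. The deposited TPM values were made by the authors from gene counts and clean tags, and recomputed values differed by at most 0.0050 TPM. A gene not listed in a library was given 0 tags, although the smallest listed count was 2.

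Members were found by gene symbol, and 79 of 85 accessions matched ARS-UCD2.0, used for names only. For the Audic-Claverie test the smaller tail was multiplied by 2 and adjusted by the Benjamini-Hochberg method over all genes with a tag in either library, with 0.01 TPM in place of 0. Medians use genes whose mean was 1 TPM or more. Intervals were Clopper-Pearson for ratios, Poisson for levels and Wilson for shares, all at 95%. They cover counting error only, since PCR copies are not independent molecules. No fold is given where either library held 3 tags or fewer. The test was checked on simulated counts. Alternatives were TMM (edgeR 4.0.16) and DESeq2 1.42.0 scaling, totals without genes over 1% of tags, edgeR's exact test under a coefficient of variation set at 0.2 or 0.4, Fisher's exact test, 3-fold and 1.5-fold thresholds, a minimum of 5 TPM and 0.5 tags added. Python 3.11.15, scipy 1.17.1 and R 4.3.3 were used.

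Named genes are every smooth muscle gene and keratin, the general genes called in at least 1 comparison and the 10 most abundant ones. Other genes were named after their values were seen. The members and lists were chosen with earlier results of these data known. Sequences of the genes were not used here.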

Additional observations from a re-analysis of the deposited data

How the results depend on the processing

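Counts of members called higher and lower are given for stage I (2 and 9), stage II (10 and 3) and the whole transition (7 and 10), in this order. They were 4 and 5, 14 and 2, and 14 and 3 with TMM, and 4 and 5, 15 and 2, and 14 and 3 with DESeq2 size factors. Totals without the genes over 1% gave 2 and 7, 14 and 2, and 12 and 4. A 1.5-fold threshold gave 5 and 16, 18 and 5, and 12 and 16, and a 3-fold threshold 0 and 2, 5 and 1, and 5 and 3. An assumed coefficient of variation of 0.2 gave 0 and 0, 3 and 0, and 4 and 0, and one of 0.4 gave 0 for every count. Over all genes the value of 0.2 gave 27 and 27, 65 and 95, and 54 and 102. The value of 0.4 gave 2 and 1, 6 and 2, and 13 and 1 over all genes. A minimum of 5 TPM gave 2 and 8, 9 and 3, and 6 and 9, and Fisher's exact test and 0.5 added tags left all counts as they were. No member was called in opposite directions, but the alternatives could not have shown this. The other scalings raise a log2 ratio by at most 0.52, and the other tests and thresholds leave its sign. TMM raises every ratio, so calls higher were kept by construction, while of those lower 5, 2 and 3 were shared.

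Some group medians changed sign. The keratin median became 0.24 with TMM, 0.26 with DESeq2 and 0.25 without the genes over 1% in stage II, and 0.23, 0.25 and 0.10 over the whole transition. The general genes became 0.18, 0.19 and 0.18 in stage II, and 0.04 with TMM and 0.06 with DESeq2 over the whole transition. The smooth muscle median of stage I became −0.09 with a minimum of 5 TPM, and that of the striated isoforms 0.27 with every member included. The shift of scale is the same for every gene in a comparison and equals the value given in the report.

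No paired analysis was possible because each time point had 1 library. For the same reason nothing here measures the spread among cows, and a gene with a few tags, such as KRT75, TUBA1D or TUBA4A, rests on counting error alone.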
